A study of Mus musculus with 6 samples.

Results

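The genes described here lie in 1 stretch of mouse chromosome 13, from Ccl28 to B020031M17Rik, and were chosen from their RefSeq accessions on the array: Ccl28, Hmgcs1, Nim1k, Zfp131, Tcstv1 and B020031M17Rik. These 6 are among 112 genes that could be named on the array and 70 in the deposited value table. In the RefSeq gene order the stretch holds 16 annotated genes, of which 7 have a named probe. The stretch was chosen with the genotype differences of its genes already known, so those differences are given below as descriptions and carry no p-value.

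RNA from brain was compared between 3 wild-type (WT) mice and 3 APP/PS1 mice, all male, aged 9 months and of strain C57BL/6. APP/PS1 mice carry transgenes for the amyloid precursor protein and presenilin 1 and form amyloid plaques in the brain. The labels name neither the transgenes' promoter, nor the colony, nor a substrain of C57BL/6. Whether both genotypes carry the same substrain's version of this stretch was not tested. Each sample was labelled with Cy3 and hybridised to an Agilent array built mainly for long non-coding transcripts, on which each of the 6 genes has 1 probe printed as 1 spot.

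The 5 arrays with a scanner file measured 40592 to 46873 probes well above background. At bright probes, WT replicates 2 and 3 differed by less than repeated spots of 1 probe do. Their scatter was 0.0254 log2 over 10432 bright probes of the value table, after centring within blocks of the array. For repeated spots the median was 0.0736, in the scanner signals of WT replicates 1 and 2 and without that centring. Other pairs of the same genotype, measured as WT replicates 2 and 3 were, scattered by 0.0884 to 0.104. The mean of WT replicates 2 and 3 therefore entered as 1 WT sample. WT means thus rest on n = 2 and APP/PS1 means on n = 3. The scanned arrays of WT shared slide 1 and those of APP/PS1 shared slide 2. For every value below, an effect of the slide and one of genotype cannot be told apart. The APP/PS1 arrays were brighter, with median processed signals of 73.0 to 83.3 against 58.6 and 59.4. Of 55 marker genes of brain and other cell types, 1 had a named probe. This was B2m, a light chain of MHC class I that plaque-associated microglia raise. It rose in the scanner signals by 0.54 ± 0.07 on the log2 scale (SE, limma adjusted p = 0.0076) and was well above background on all 5 arrays. Its part, or that of cell makeup, in the differences below was not tested, and no defining marker of brain had a probe to check the tissue label. In bulk brain RNA, fewer cells of a type and less RNA per cell cannot be told apart.

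The known roles described here for genes of this stretch differ, and none is given for B020031M17Rik. Ccl28 encodes a chemokine made by mucosal and gland epithelia, which signals through the receptors Ccr10 and Ccr3 and draws in antibody-producing cells. Hmgcs1 encodes the cytosolic synthase that makes HMG-CoA, an early step of cholesterol synthesis, and its transcription is driven by sterol-sensing SREBP factors. Nim1k is a protein kinase of the AMPK-related group, Zfp131 is a zinc finger transcription factor with a BTB domain, and Tcstv1 belongs to a family of genes active in the early embryo and in a fraction of embryonic stem cells.

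RefSeq promoter windows on build GRCm38.p6 were at hand for 4 of the 6 genes. The 250 bases before the start of Ccl28, Hmgcs1 and Nim1k are shown because Ccl28 and Nim1k were both much higher in APP/PS1, while Hmgcs1, which lies between them, differed little. Capitals mark matches on either strand to GGGCGG (the GC box) and CCAAT (the CCAAT box, read ATTGG on the other strand). They also mark matches to CACCCCAC, the sterol regulatory element named for Hmgcs1. No marked match overlaps another. The Ccl28 window is chr13:119623569-119623818 on the plus strand, the Hmgcs1 window is chr13:119690101-119690350 on the plus strand, and the Nim1k window is chr13:119755883-119756132 on the minus strand.
Ccl28: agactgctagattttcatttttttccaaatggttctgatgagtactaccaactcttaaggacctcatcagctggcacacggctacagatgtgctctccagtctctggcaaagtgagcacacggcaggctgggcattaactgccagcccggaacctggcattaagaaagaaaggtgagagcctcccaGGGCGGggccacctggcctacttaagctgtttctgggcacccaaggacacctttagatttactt
Hmgcs1: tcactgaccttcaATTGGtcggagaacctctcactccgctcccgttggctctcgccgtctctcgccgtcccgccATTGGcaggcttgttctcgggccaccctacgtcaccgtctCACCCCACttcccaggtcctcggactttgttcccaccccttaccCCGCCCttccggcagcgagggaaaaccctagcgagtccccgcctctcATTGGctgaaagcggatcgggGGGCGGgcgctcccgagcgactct
Nim1k: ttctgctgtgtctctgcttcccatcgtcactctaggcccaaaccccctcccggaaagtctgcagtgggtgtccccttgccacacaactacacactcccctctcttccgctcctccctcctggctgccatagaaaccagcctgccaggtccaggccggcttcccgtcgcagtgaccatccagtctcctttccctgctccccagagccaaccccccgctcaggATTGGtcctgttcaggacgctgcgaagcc

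The windows of Ccl28 and Nim1k shared none of these motifs. Ccl28 held 1 GC box, 64 bases before the start, and no CCAAT box. Nim1k held 1 CCAAT box, 29 bases before the start, and no GC box. Hmgcs1 held 3 CCAAT boxes, 2 GC boxes and 1 match to the sterol element, 136 bases before the start. Because that element is the one named for Hmgcs1, nothing is read from its match there. Of all 32851 windows of this length, 32.7% held a GC box, 33.8% a CCAAT box and 2.58% the sterol element. The TATA box, searched on both strands as TATAAA, had no match in the windows of the 4 genes and was present in 12.4% of all windows. An E box, searched as CACGTG, was also without a match (6.02% of all windows). The AP-1 site, searched as TGACTCA, had none either (4.46%).

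The windows differed in CpG content. Ccl28 held 4 CpG dinucleotides and Nim1k 9, against a median of 6 over all windows. Hmgcs1 held 23, and the 2 windows of Zfp131 held 29 and 38. The 2 genes with large differences thus had fewer CpG dinucleotides than the 2 with small ones, a description of 4 genes. Ccl28 and Hmgcs1 are read from the plus strand and Nim1k and Zfp131 from the minus strand, so Hmgcs1 and its next named neighbour Nim1k point towards each other.

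Ccl28, the chemokine, had the largest difference of the 6. Its log2 signal in the value table was 6.42, 6.29 and 6.33 in WT replicates 1 to 3 and 9.51, 9.46 and 9.45 in APP/PS1 replicates 1 to 3. Every APP/PS1 sample lay 3.03 log2 units or more above every WT sample, while the samples of 1 genotype spanned at most 0.13. The means were 6.37 ± 0.08 (SD, n = 2) and 9.47 ± 0.03 (SD, n = 3), and the log2 difference was 3.11 ± 0.07 (SE), or 8.62-fold. Of all 48436 probes, 158 (0.326%), Ccl28 included, had a rise as large.

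The difference in Ccl28 was visible in the raw spots. The processed spot intensity was 71.8 and 64.4 on the WT arrays and 777, 808 and 785 on the APP/PS1 arrays. Without any background subtraction or scaling, the median pixel signal of the spot was 113 and 106 in WT and 818, 831 and 839 in APP/PS1, a 7.58-fold difference. The median of that unscaled fold over 59994 spots was 1.2. Local background beside the Ccl28 spot was 27 and 29 on the WT arrays and 25, 26 and 25 on the APP/PS1 arrays, so the WT spots were dim but well above background.

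**Figure D1:**
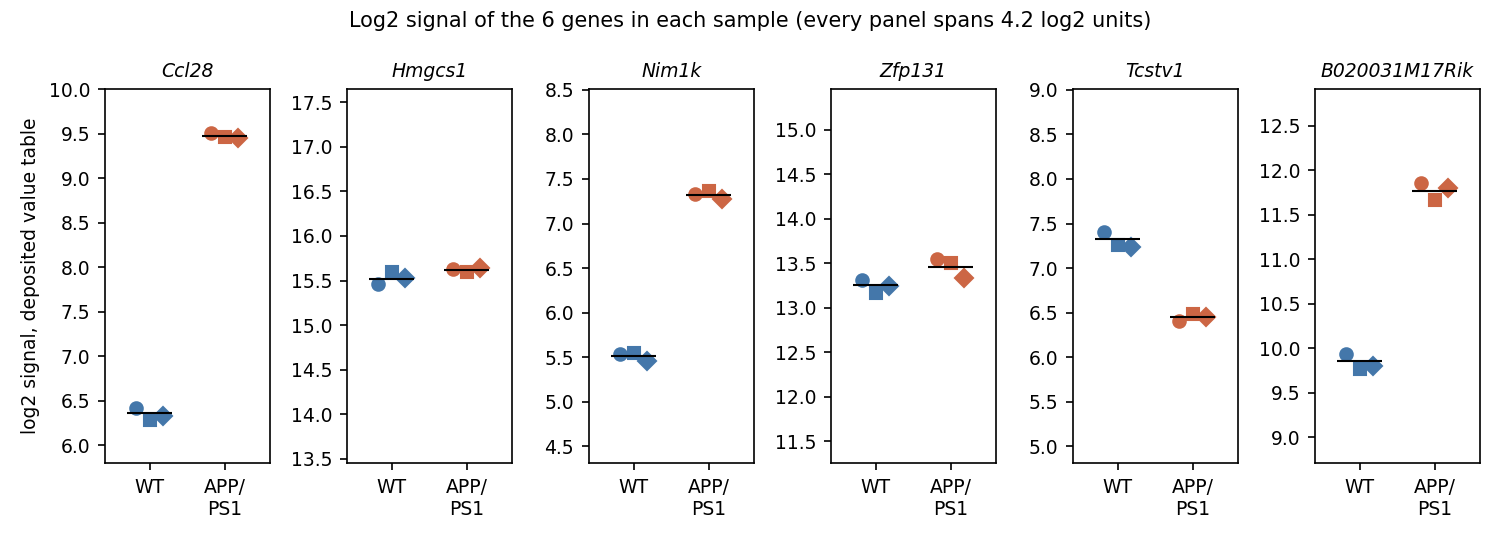
Log2 signal in the deposited value table (vertical axis) of each gene in the 3 WT samples (blue) and 3 APP/PS1 samples (orange); circles, squares and diamonds are replicates 1, 2 and 3, and black lines are group means with WT replicates 2 and 3 averaged first. Ccl28, Nim1k and B020031M17Rik are far higher in every APP/PS1 sample, Tcstv1 is lower, and Hmgcs1 and Zfp131 lie close in both genotypes.

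Hmgcs1, the cholesterol synthesis enzyme 2 places along from Ccl28, differed little. Its log2 signal was 15.46, 15.60 and 15.53 in WT and 15.63, 15.60 and 15.64 in APP/PS1. The groups touched, since WT replicate 2 equalled APP/PS1 replicate 2. The log2 difference was 0.11 ± 0.07 (SE), and 37.8% of all probes had a rise as large.

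The size of the Hmgcs1 difference depended on the scale. The processed spot intensity was 39900 and 43269 in WT and 61570, 61474 and 63202 in APP/PS1, a 1.49-fold difference before scaling, beside a median of 1.28-fold over all spots. After scaling of each array by its 75th percentile the log2 difference was 0.24 ± 0.08 (SE), and the 3 APP/PS1 arrays lay above both WT arrays. No Hmgcs1 spot was saturated.

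Nim1k, the kinase gene next to Hmgcs1, was much higher in APP/PS1. Its log2 signal was 5.53, 5.55 and 5.46 in WT and 7.33, 7.36 and 7.28 in APP/PS1. The groups were 1.73 log2 units apart, and each spanned 0.09 or less. The log2 difference was 1.81 ± 0.06 (SE), or 3.50-fold, and 599 probes (1.24%) had a rise as large.

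Nim1k was the dimmest of the 6 spots in WT, with processed intensities of 38.1 and 37.5 against 165, 190 and 176 in APP/PS1. All 5 arrays measured it well above background. Without background subtraction the spot signal was 95.5 and 86.5 in WT and 215, 222 and 226 in APP/PS1, 2.43-fold. With the normexp background correction, which models the background and adds an offset of 50, the log2 difference was 0.54 instead of 1.88 in the scanner signals, and the 2-fold mark was no longer reached. The direction did not depend on this choice, whereas the size of the fold did.

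Zfp131, the BTB zinc finger gene 3 places further, had a small difference. Its log2 signal was 13.31, 13.16 and 13.24 in WT and 13.55, 13.50 and 13.33 in APP/PS1. The groups did not overlap, but the lowest APP/PS1 sample was 0.02 log2 units above the highest WT sample, and the APP/PS1 samples spanned 0.22. The log2 difference was 0.20 ± 0.10 (SE), and 30.7% of all probes had a rise as large.

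AF067063 lies between Zfp131 and Tcstv1 and is the only other gene of the stretch with a named probe. It has no row in the value table. Its processed intensity was 4.14 and 3.81 in WT and 4.34, 3.49 and 5.21 in APP/PS1, and no array of the 5 measured it well above background, so no difference is given.

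Tcstv1, the early embryo gene, was the only one of the 6 that was lower in APP/PS1. Its log2 signal was 7.41, 7.26 and 7.24 in WT and 6.41, 6.48 and 6.45 in APP/PS1. Every APP/PS1 sample was at least 0.76 log2 units below every WT sample, and the wider group spanned 0.17. The log2 difference was -0.88 ± 0.08 (SE), so the WT signal was 1.84-fold that of APP/PS1, and 1960 probes (4.05%) had a fall as large.

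The processed intensity of Tcstv1 was 147 and 130 in WT and 87.0, 104 and 101 in APP/PS1. Before scaling it was thus lower on the brighter APP/PS1 arrays, at 0.699-fold of WT. Local background at this spot was 34 on both WT arrays and 31, 29 and 45 on the APP/PS1 arrays. Its part in the difference was not tested.

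B020031M17Rik, at the end of the stretch, was higher in APP/PS1. Its log2 signal was 9.93, 9.77 and 9.80 in WT and 11.85, 11.66 and 11.80 in APP/PS1. The groups were 1.73 log2 units apart and spanned 0.16 and 0.19. The log2 difference was 1.91 ± 0.09 (SE), or 3.76-fold, and 505 probes (1.04%) had a rise as large.

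The B020031M17Rik spot was bright enough that the background weighed little. Its processed intensity was 859 and 782 in WT and 4072, 3767 and 4044 in APP/PS1, and the unsubtracted spot signal gave 4.61-fold. With normexp the log2 difference was 1.93, as it was with the processed signals (1.93). Of the 3 genes with large differences it was thus the one whose size depended least on the background correction, since Ccl28 had 2.15 and Nim1k 0.54 with normexp against 3.20 and 1.88 without.

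**Figure D2:**
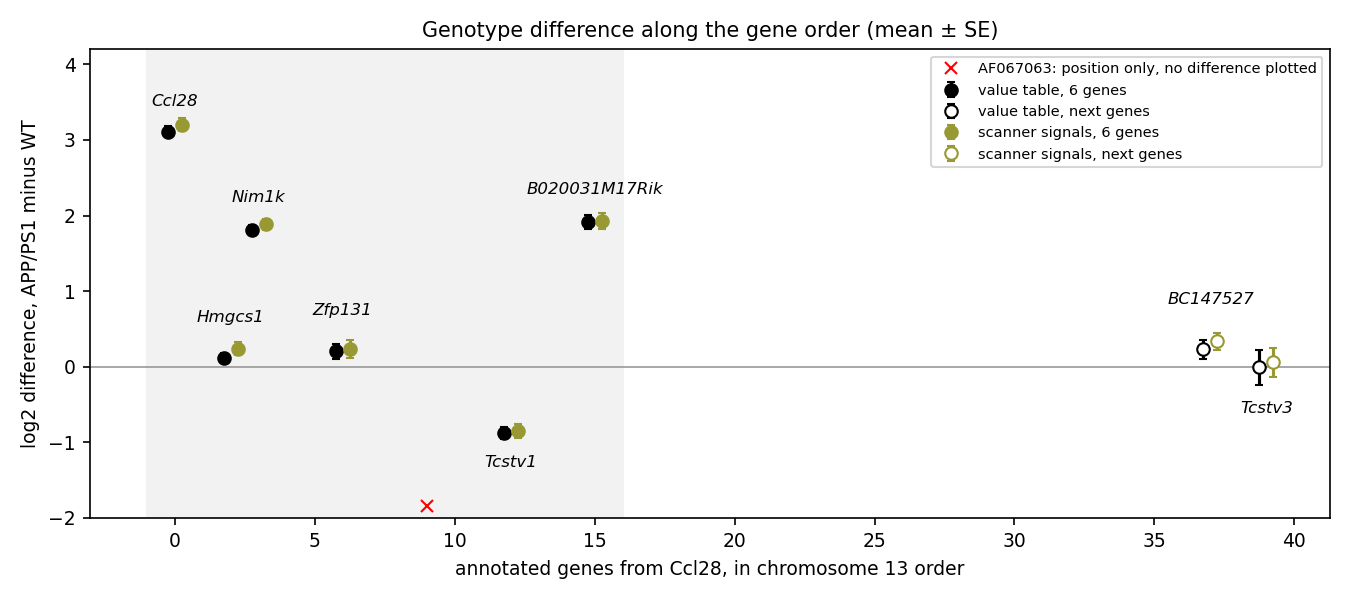
Log2 difference between APP/PS1 and WT (vertical axis, mean ± SE) against the place of each gene in the annotated order of chromosome 13, counted from Ccl28 (horizontal axis), in the value table (black) and the scanner signals (olive). Filled points are the 6 genes, open points the next 2 named genes, grey shading the stretch, and the red cross only the place of AF067063; Hmgcs1 and Zfp131 lie near 0 while Ccl28, Nim1k and B020031M17Rik lie above 1.8 and Tcstv1 below 0.

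The differences along the gene order were uneven, and genes with large ones did not stand together. Ccl28 was 8.62-fold higher, Hmgcs1 at place 2 had 1.08-fold, Nim1k at place 3 had 3.50-fold and Zfp131 at place 6 had 1.15-fold. Tcstv1 at place 12 was lower and B020031M17Rik at place 15 was 3.76-fold higher. So 3 of the 6 genes were higher by at least 2-fold, where 5.03% of all probes were. None was lower by 2-fold, where 2.87% of all probes were. In 4 of the 6 all APP/PS1 samples lay above all WT samples, where 25.8% of all probes did, and in 1 they lay below, where 30.6% did. By limma with an adjusted p under 0.05, 4 of the 6 were called, 3 of them as higher, where 30.1% of all probes were called and 14.2% as higher. Because the genes were chosen from this contrast, nothing is read from these counts. The median log2 difference of the 6 genes was 1.01, beside -0.03 over all probes. That median falls between Zfp131 (0.20) and Nim1k (1.81), and no gene lay near it.

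The scanner signals of the 5 arrays gave nearly the same picture. There 3 of the 6 genes were at least 2-fold higher, where 7.03% of 45560 probes were. All APP/PS1 arrays lay above both WT arrays for 5 genes, where 33.6% of probes did, and below for Tcstv1, where 29.0% did. By limma 4 genes were called here too, where 32.5% of probes were. The log2 differences in gene order were 3.20 ± 0.09, 0.24 ± 0.08, 1.88 ± 0.07, 0.23 ± 0.12, -0.86 ± 0.09 and 1.93 ± 0.10 (SE). These arrays are the same samples, so the scanner signals are a second processing and not a second measurement.

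**Figure D3:**
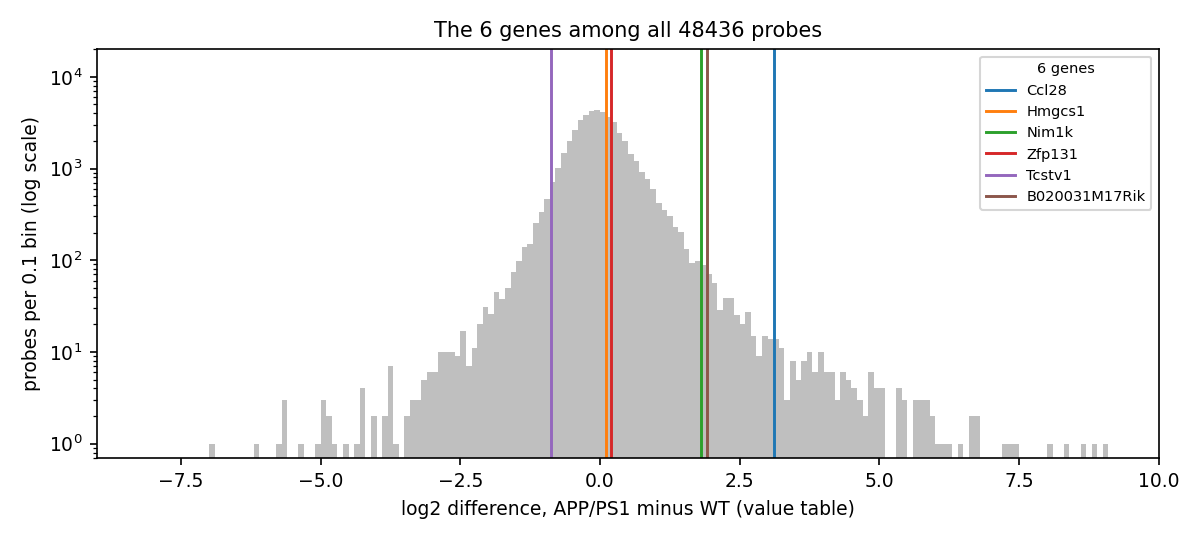
Number of probes (vertical axis, log scale) by their log2 difference between APP/PS1 and WT in the value table (horizontal axis, bins of 0.1), with a coloured line at each of the 6 genes. Hmgcs1 and Zfp131 stand in the body of the distribution, Tcstv1 in its lower flank, and Nim1k, B020031M17Rik and Ccl28 in its upper tail.

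The next named genes beyond the stretch, BC147527, Tcstv3 and H2ac23, did not pass the test, but their spots were dim. Processed intensities were 42.7 to 79.7 for BC147527, 24.1 to 39.9 for Tcstv3 and 19.2 to 43.0 for H2ac23. The H2ac23 spot was not well above background in APP/PS1 replicate 1. With 2 WT samples against 3 and such dim spots, these tests cannot show where the differences end. BC147527 lies 22 places after B020031M17Rik, and its log2 signal was 5.69, 6.02 and 6.03 in WT and 6.14, 6.09 and 6.03 in APP/PS1. Its groups touched, with a log2 difference of 0.23 ± 0.12 (SE), for which limma gave an adjusted p of 0.219. The scanner signals put it at 0.34 ± 0.11 (SE), with a limma adjusted p of 0.0776. Tcstv3, which shares its family name with Tcstv1 and lies last on the chromosome, 24 places after B020031M17Rik, differed by -0.01 ± 0.23 (SE), with 0.978 as its limma adjusted p. On the other side of Ccl28 the nearest named gene, H2ac23, a histone H2A gene, lies 1920 places away and had -0.58 ± 0.38 (SE) with a limma adjusted p of 0.3. The difference between Tcstv1 and Tcstv3 was not tested, and their probe sequences were not used here, so which copies of a gene family each probe reads is uncertain.

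Few other genes of the same families could be named on this array. Of 48 chemokine ligand genes, 4 had a probe, and besides Ccl28 these were the near-identical copies Ccl21b, Ccl21c and Gm13304. Their log2 differences were 4.39, 3.89 and 4.61. The list was written with earlier results of these data known, so no p-value is given for them. Which copies each of these probes reads is uncertain, so they may not be separate measurements. None of 24 chemokine receptor genes had a named probe, so Ccr10 and Ccr3 were not measured by name. Hmgcs1 was the only one of 23 cholesterol synthesis genes, Nim1k of 17 AMPK-related kinase genes and Zfp131 of 48 BTB zinc finger genes. Of 52 early embryo genes 4 had a probe. Besides Tcstv1, Tcstv3 did not pass, Tdpoz5 was not well above background on any array, and Btbd35f4 was well above background on 3 of 3 APP/PS1 arrays and on no WT array. Its WT level is thus only a bound, set on each array at the lowest signal of any probe well above background, or at its own where that is higher. Against that bound the APP/PS1 arrays were at least 1.62-fold higher in the scanner signals.

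The likeness of other probes was measured as the distance over 5 samples between log2 values, each set to 0 at its WT mean. Among 74 named probes the one most like Nim1k was B020031M17Rik, at a distance of 0.27, and the reverse also held. In the scanner signals the distance between them was 0.26. Next by rank came Ssty2, a Y-linked testis gene, at 0.37 from Nim1k and 0.53 from B020031M17Rik, and Btbd35f4 at 1.50 and 1.69. No WT array measured either gene well above background. Ssty2 sat at the table's lowest value in every WT sample, so its distances are set by that floor. Btbd35f4 lay above that floor in WT, at 3.85, 4.09 and 4.31, but without detection there its distances are uncertain too. In the scanner signals Ssty2 lay at 0.81 and 0.88, and Btbd35f4 at 1.1 and 1.21.

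No named gene was close to Ccl28. The nearest was Ccl21c at 1.35, followed by B020031M17Rik at 2.07 and Ssty2 at 2.14. In the scanner signals these last 2 changed places, with Ssty2 at 1.63 and B020031M17Rik at 2.20, and the rank of Ssty2 again rests on its floor. Over all probes, ASMM9PARTA001844 and ASMM9PARTA024967, 2 probes with no gene name here, lay at 0.16 and 0.18 from Ccl28. The genes most like Tcstv1 were E330014E10Rik at 0.20, Spry3, of the Sprouty family of signalling inhibitors, at 0.38 and Gm16513 at 0.43. Such distances follow mostly from the size of the genotype difference and the small number of samples.

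The probes nearest to the other genes were ASMM9PARTA047836 and ASMM9PARTA050830 for Nim1k, at 0.07 and 0.09, and ASMM9PARTA035715 and ASMM9PARTA016945 for B020031M17Rik, at 0.05 and 0.08. For Tcstv1 they were ASMM9PARTA024813 and ASMM9PARTA037958, at 0.03 and 0.06. With 48436 probes, many have a pattern of nearly the same size.

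**Figure D4:**
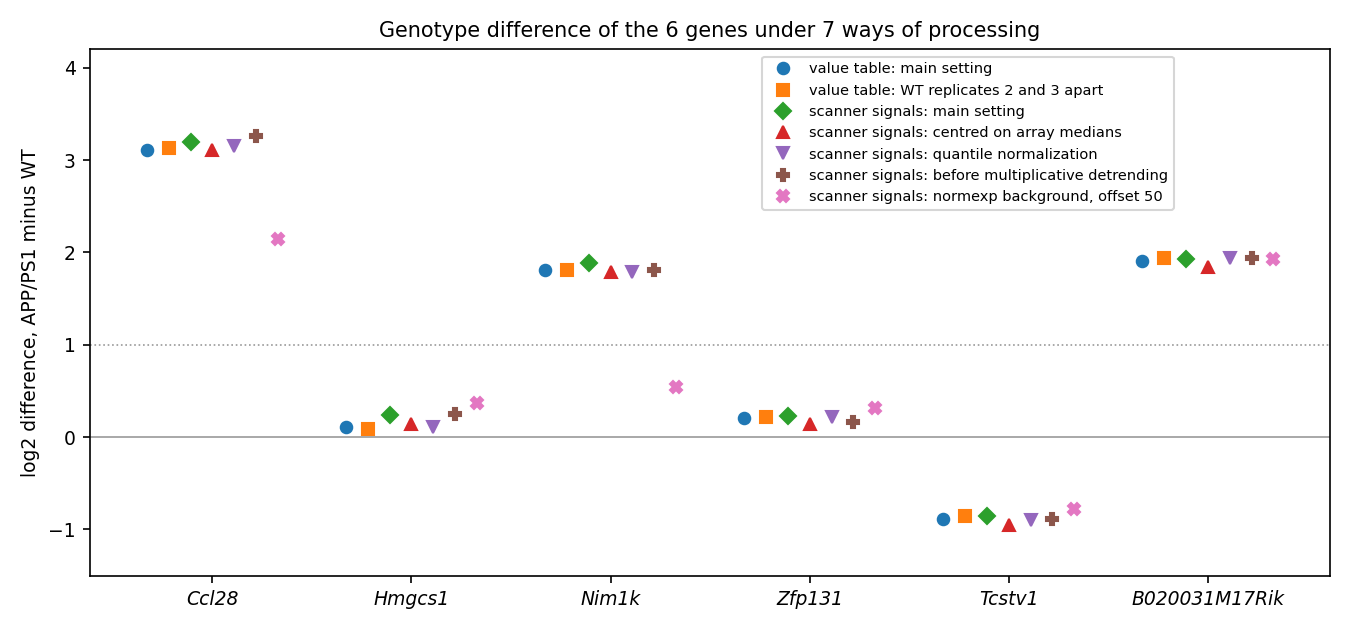
Log2 difference between APP/PS1 and WT (vertical axis) of each of the 6 genes (horizontal axis) under 7 ways of processing, 1 symbol each; the dotted line marks a 2-fold rise. The symbols of each gene lie close together except those for normexp, which sit lower for Ccl28 (2.15) and Nim1k (0.54).

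With arrays centred on their medians, quantile normalized, or taken before the scanner software's multiplicative detrending, 3 genes stayed at 2-fold or more. That detrending had been applied to WT replicate 1 and APP/PS1 replicates 1 and 2 but left WT replicate 2 and APP/PS1 replicate 3 as they were. At the Ccl28 spot of WT replicate 1 the processed signal was 1.13 times the subtracted one, the largest such factor at the spots of the 6 genes on these arrays. Taken before detrending, the log2 differences were 3.26 for Ccl28, 1.81 for Nim1k and 1.94 for B020031M17Rik.

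Leaving out 1 sample at a time moved the 6 genes little. In the value table Ccl28 ranged from 3.09 to 3.16, Nim1k from 1.78 to 1.83 and B020031M17Rik from 1.87 to 1.99. Tcstv1 ranged from -0.90 to -0.80, Zfp131 from 0.16 to 0.27 and Hmgcs1 from 0.06 to 0.13. The precision of a single spot, as the scanner software estimates it, was 10% to 14.3% of the signal over the 6 genes, and with few arrays the estimate of each spread is itself uncertain.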

How the data were processed

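Brain RNA of 3 WT and 3 APP/PS1 samples was extracted with Trizol, freed of ribosomal RNA and turned into Cy3-labelled cRNA with random primers, per the labels' protocols. The deposited scanner files hold each spot's intensity on an array designed on mm9, per the file headers. The submitters' processing notes name Agilent Feature Extraction, version 11.0.1.1. The authors' deposited table gives log2 values whose column medians all equal 7.06. How it was normalized and which probes were kept are not given in the sources used here. Its columns followed the log2 processed signal of the same array (r of 0.9996 or more). WT replicate 3 is in the value table only. The labels call the replicates biological.

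Rows were tied to spots by spot number, and accessions to symbols through a RefSeq table on GRCm38.p6, used for names and gene order. Two-sided tests were run with limma (3.58.1, under R 4.3.3) and adjusted by Benjamini-Hochberg over all probes, with 0.05 as the threshold, on 2 WT against 3 APP/PS1 samples, with WT replicates 2 and 3 averaged. For the scanner signals, the array's 75th percentile was subtracted from the log2 processed signal. Outlier spots and 20 negative control probes were left out, and a probe had to be well above background on at least 2 arrays. The fit was run on simulated data with the same spread for every probe and no slide effect. That run cannot show how the fit performs with the spreads and slides of these data. The number of arrays limits the precision.

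The 6 genes and all lists were chosen with earlier results of these data known. Genes were named by rule: the 6, up to 3 named genes on each side, measured members of the family lists, and, for genes at least 2-fold higher and for Tcstv1, the 3 named genes and 2 probes nearest by distance. Alternatives changed the scaling, the background correction, the filter on dim probes, the variance model and the samples used, or added the replicate number as a block. The signal before detrending was added after seeing the data.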

Additional observations from a re-analysis of the deposited data

How the results depend on the processing

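The log2 differences of the 6 genes kept their direction under every alternative run. Filters on probes cannot move a gene's own difference, nor can re-centring the value table, whose column medians are all equal. The block repeats another alternative's values, so the alternatives make 6 or 7 distinct values per gene in the value table and 9 in the scanner signals. Centring the scanner arrays on their medians did move the differences, for Ccl28 from 3.20 to 3.11. Under normexp, Ccl28 had 2.15 and Nim1k 0.54, so 2 genes instead of 3 reached 2-fold; no other alternative changed that count. Nim1k and Tcstv1 lie below the median level of the table, so no count was made among probes above it. Dim spots limit Nim1k most. The number of probes called by limma, 14593 in the value table, was 3228 with an unadjusted p and a 2-fold change, and 5725 to 14380 leaving out 1 sample (5725 without WT replicate 1, and 9139, 7420 and 7663 without APP/PS1 replicates 1, 2 and 3); with WT replicates 2 and 3 apart it was 20262, which fell to 15417 with the replicate number as a block. In the scanner signals 14828 became 7884 with normexp, 3565 with an unadjusted p and a 2-fold change, 7555 to 10473 leaving out 1 sample, and 0 with the replicate block, where 15275 had an unadjusted p under 0.05 and 1 residual degree of freedom was left. Same-numbered samples did not deviate together (correlations of 0.0914, -0.0666 and -0.0915 over bright probes). With so few samples, and WT replicates 2 and 3 nearly identical, these correlations cannot decide whether the numbers pair the samples. Where 1 WT sample was left, its spread was taken from APP/PS1. Normexp moved the median log2 difference over all probes to -0.22. The 3 named genes nearest to each of 4 genes made 12 pairs, with some genes in more than 1 pair. The scanner signals gave the same 12 pairs, with Ssty2 and B020031M17Rik in the other order for Ccl28.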
